A study of Xiphophorus maculatus with 32 samples.

Results

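A small set of circadian clock genes was followed through every light exposure of the series. They are ENSXMAT00000002257 (BHLHE40), ENSXMAT00000002359 (NR1D4), CRY2.CDS and CSNK1A1.CDS, which are 4 of the 20218 rows of the deposited count table. The rows were picked by gene name, with earlier results of these data known. The first pair was named from the gene panel of the study, whose genes had been selected for their response to light, and the last pair carries a gene symbol in the table itself.

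The vertebrate clock is a feedback loop of transcription, in which the activators CLOCK and ARNTL drive the PER and CRY genes, whose proteins then repress the activators. BHLHE40 is a basic helix-loop-helix repressor that acts on the same E-box elements, and NR1D4 is a fish member of the REV-ERB nuclear receptors, a family known in mammals to repress ARNTL through elements that the ROR receptors activate. CRY2 is a cryptochrome, known in mammals as a core repressor of the loop, and CSNK1A1 is the alpha form of casein kinase 1, a kinase family that phosphorylates PER proteins in mammals. In zebrafish, clocks in peripheral tissues respond directly to light.

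Skin RNA was sequenced from mature male *X. maculatus* of the inbred line Jp 163 B, aged 10 to 11 months, with 2 fish for each of 12 exposures. The exposures were fluorescent light (FL, 4100 K, 35 kJ/m2), 6 wavebands of 50 nm between 300 and 600 nm at 7.3, 18.6, 21.6, 21.2, 17.4 and 13.8 kJ/m2 from the shortest to the longest, and 5 wavebands of 10 nm between 500 and 550 nm. Exposed fish had spent 14 h in the dark before the exposure and spent 6 h in the dark after it. The controls were unexposed fish, 2 for FL and the 50 nm wavebands and another 2 for the 10 nm wavebands. The 4 control columns labelled for FL repeat the 2 controls of the 50 nm wavebands. The paper describes controls as taken from the dark without handling, but elsewhere as drawn from the same dark flasks as exposed fish. It also states that control and exposed fish were kept alike. Which account holds for these libraries is not stated. By the first account only the exposed fish were handled and had a further dark period. By none of them is it stated whether control and exposed fish were sampled at the same clock time. For clock genes the handling, the time of day and the light therefore cannot be told apart in any comparison with controls here. The paper also handled sham fish with the light off. It removed genes that differed between sham fish and controls before its functional lists. No sham library is among these samples, so no such filter was applied here. Comparisons among the wavebands of 1 experiment, and of FL with the 50 nm wavebands, leave the controls out of the contrast. The controls still entered the edgeR fits, and the clock time of each exposure is not stated either. All fish came from 1 inbred line and 1 sex, and whole skin was used, in which fewer cells of a type and less RNA per cell cannot be told apart.

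The 28 distinct libraries held between 12835091 and 41221463 counts. Fish of 1 group could be far apart, and 1875 of 16872 genes had a gap of 2-fold or more between the FL fish, against 361 genes between their controls. The same count was 3415 for 510-520 nm and 2291 for 520-530 nm. Of 18 markers listed for skin and for tissue next to it, 2 had a row with a name. FOXN1, a transcription factor of epidermis, was at 0.725 CPM in fish 1 of 510-520 nm and at 0.891 CPM in fish 1 of 520-530 nm, and between 3.82 and 13.2 CPM in the other 26 libraries. MYL2B, a myosin light chain of muscle, was between 27.6 and 181 CPM. CPM are counts scaled to the effective library size, and they compare fish for 1 gene, not genes with each other. The last pair of members are coding sequence rows and may share reads with another transcript row of the same gene.

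FL exposed skin held the highest NR1D4 level of the series and the lowest mean BHLHE40 level. BHLHE40 was at 134 and 159 CPM in the FL fish, against 360.2 and 300.1 CPM in their controls. NR1D4 was at 32.3 and 29.4 CPM in the FL fish, against 15.2 and 11.8 CPM in their controls. Both FL fish therefore lay below both controls for BHLHE40 and above both for NR1D4. Among all genes, 27.5% had both FL fish below both controls and 27.8% had them above, so this separation of 2 fish from 2 is common.

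FL gave a log2 fold change of -1.18 (SE 0.19) for BHLHE40 and of 1.19 (SE 0.22) for NR1D4. A gene was called where its adjusted p was under 0.05 and its difference from the controls at least 2-fold. The quasi-likelihood test of edgeR gave an adjusted p of 0.120 for BHLHE40 and of 0.128 for NR1D4, so neither was called. After FL, 0% of the 16513 genes tested were called, and the lowest adjusted p of any gene was 0.116. Unadjusted p-values were under 0.05 for 2 of the 4 members and for 16.8% of all genes. DESeq2 and the exact test of edgeR each called BHLHE40 and NR1D4. DESeq2 gave an adjusted p of 0.000168 for BHLHE40 and of 0.00114 for NR1D4, where it called 3.87% of all genes. The exact test gave 0.000172 for BHLHE40 and 0.00139 for NR1D4, where it called 4.61% of all genes. BHLHE40 was called in 7 of 13 alternative fits and NR1D4 in 5 of 13, and the adjusted p ran between 0.000168 and 0.592 for BHLHE40 and between 0.00114 and 0.930 for NR1D4. Both genes were also called when either FL fish was left out. BHLHE40 then had an adjusted p of 0.00715 without fish 1 and 0.0211 without fish 2, and NR1D4 of 0.00652 without fish 1 and 0.0244 without fish 2, in fits where the lone FL fish is assumed to vary like the controls. Those fits called 15.2% of all genes without fish 1 and 2.53% without fish 2. MYL2B stood at 41.0 CPM in FL fish 1 and at 181 CPM in FL fish 2, against 101 and 64.8 CPM in the controls. FOXN1 was between 7.21 and 11.0 CPM in the FL fish, above both controls at 5.98 and 6.69 CPM, and the part of either marker in these values was not tested.

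CRY2 and CSNK1A1 gave no such separation after FL. CRY2 was at 1.29 and 0.242 CPM in the FL fish, from 33 and 5 counts, against 0.382 and 0.725 CPM in the controls. The FL fish lay on either side of the controls, and the log2 fold change was 0.50 (SE 0.77, adjusted p 0.744). CSNK1A1 was at 134 and 139 CPM in the FL fish, against 144 and 131 CPM in the controls. Both FL fish lay between the controls, at a log2 fold change of -0.02 (SE 0.16). The median log2 fold change after FL was 0.24 over the 4 members and -0.02 over all genes. With BHLHE40 at -1.18 and NR1D4 at 1.19, the median of the members describes no common shift.

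**Figure D1:**
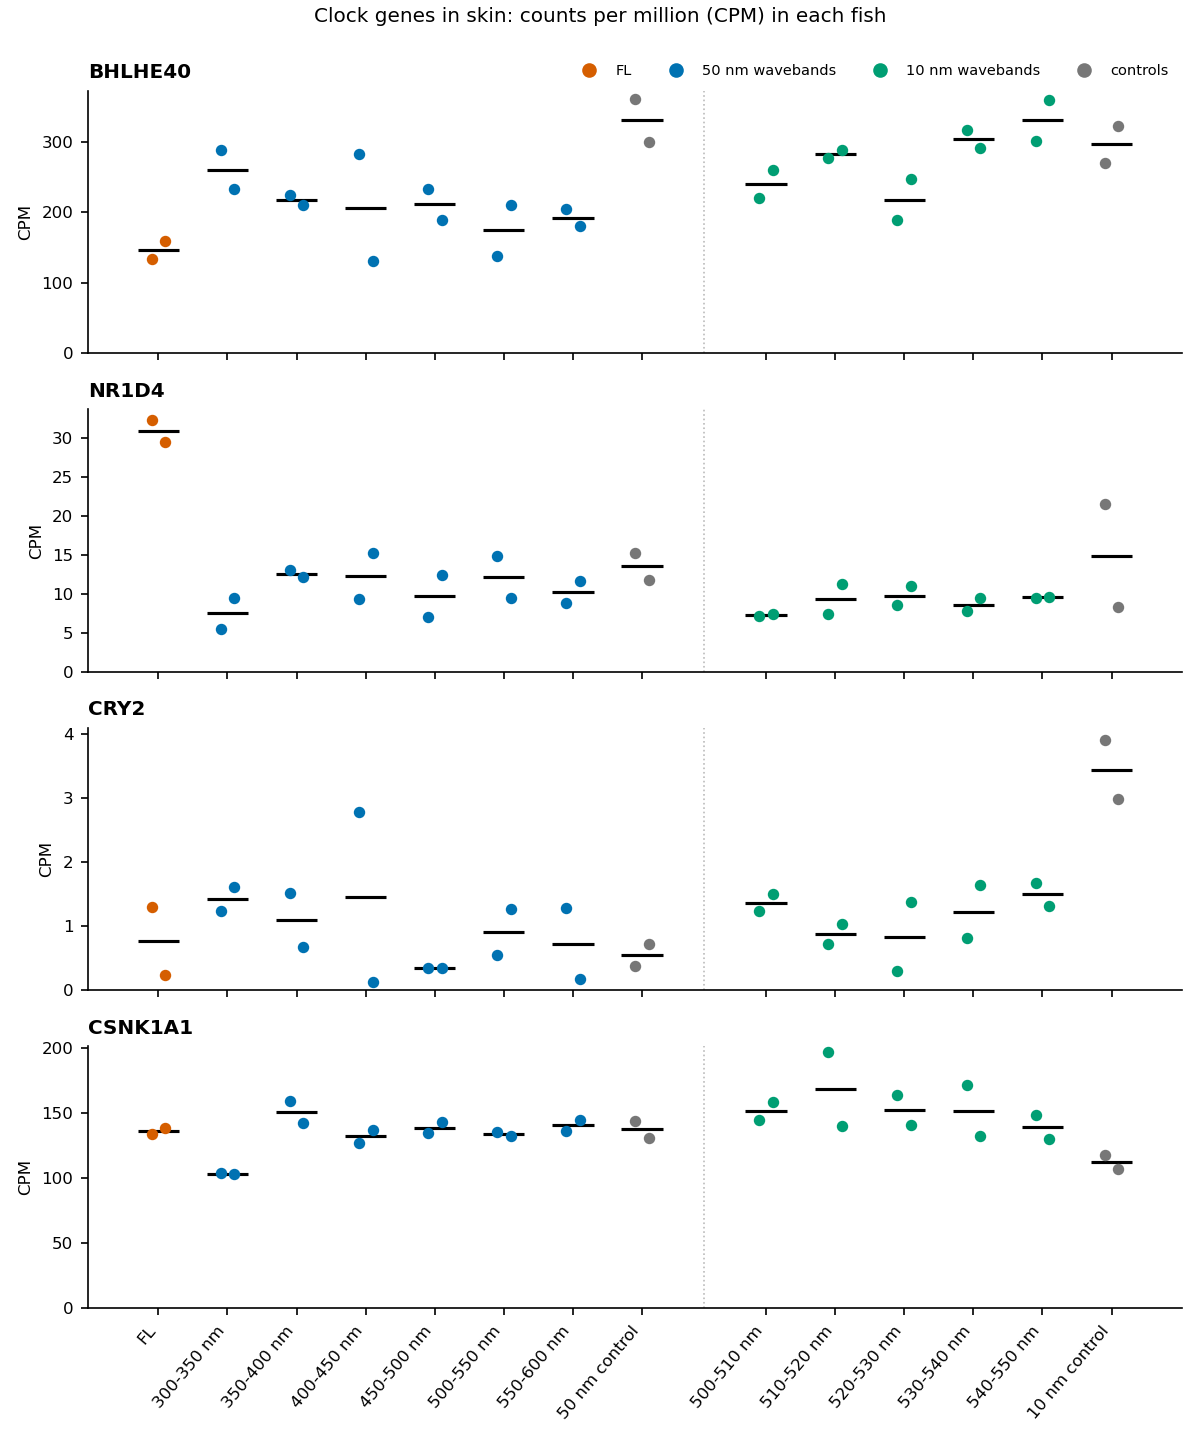
Levels in CPM (vertical axes, each starting at 0) of BHLHE40, NR1D4, CRY2 and CSNK1A1 in each fish, by exposure and control group; points are single fish (2 a group), bars are group means, and a dotted line parts the FL and 50 nm experiments from the 10 nm experiment. The FL fish are the highest for NR1D4 at 32.3 and 29.4 CPM, and all 10 fish of the 10 nm wavebands lie below both of their CRY2 controls.

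BHLHE40 lay below its controls after each of the 6 wavebands of 50 nm as well, although no single waveband passed the test. It was at 287 and 232 CPM after 300-350 nm, at 224 and 211 CPM after 350-400 nm and at 282 and 130.3 CPM after 400-450 nm. The longer wavebands gave 233 and 189 CPM after 450-500 nm, 138 and 210.3 CPM after 500-550 nm and 204 and 180.5 CPM after 550-600 nm. Every one of these 12 fish lay below both controls, which were at 360.2 and 300.1 CPM. The same was true of 9.74% of all genes, and 9.51% had all 12 fish above both controls. The exposures share the same 2 control fish, so the 6 comparisons do not stand apart from each other.

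BHLHE40 had log2 fold changes of -0.36 (SE 0.30), -0.64 (SE 0.30), -0.72 (SE 0.30), -0.67 (SE 0.30), -0.96 (SE 0.30) and -0.79 (SE 0.30) from the shortest to the longest 50 nm waveband. Its adjusted p ran between 0.0586, after 500-550 nm, and 0.536, after 300-350 nm, and 4 of the 6 had an unadjusted p under 0.05. The mean of the 6 wavebands was lower than the controls by a log2 fold change of -0.69 (SE 0.22, adjusted p 0.0476), a contrast added after the values were seen. This is less than 2-fold and so was not a call, and 3.79% of all genes were called in this contrast. The adjusted p of this mean was above 0.05 without either control, at 0.303 without control 1 and 0.186 without control 2. It was also above 0.05 without either fish of 300-350 nm, of 350-400 nm, of 450-500 nm or of 550-600 nm, or without fish 1 of 500-550 nm, where it ran between 0.0515 and 0.0774, and with another scaling of the libraries (0.0520). Within 400-450 nm the fish were 2.17-fold apart, the widest gap of BHLHE40 in any group.

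NR1D4 lay lower after every waveband than after FL. It was at 5.53 and 9.42 CPM after 300-350 nm, 13.0 and 12.1 CPM after 350-400 nm and 9.29 and 15.3 CPM after 400-450 nm. After the longer wavebands it was at 6.95 and 12.4 CPM (450-500 nm), 14.8 and 9.48 CPM (500-550 nm) and 8.85 and 11.7 CPM (550-600 nm), against 15.2 and 11.8 CPM in the controls. The highest of these 12 fish was at 15.3 CPM, below both FL fish, and the share of all genes with such a separation was not counted. Against the controls its log2 fold changes were all below 0, between -0.87 (SE 0.37, 300-350 nm) and -0.14 (SE 0.36, 350-400 nm), with adjusted p of 0.211 and above.

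A direct test set FL against the mean of the 6 wavebands of 50 nm, in 1 fit of both, and was added after the values were seen. The contrast leaves out the controls, although they entered the fit and so its scaling and its estimate of spread. NR1D4 was higher after FL by a log2 difference of 1.55 (SE 0.23, adjusted p 0.00152) and was called, as were 5.69% of all genes. The difference was 1.49 without FL fish 1 (adjusted p 0.00616) and 1.65 without FL fish 2 (adjusted p 0.0220), in fits that called 13% of all genes without fish 1 and 1.18% without fish 2. The adjusted p was at most 0.00351 when any fish of the wavebands was left out. The other members were not called in this test. BHLHE40 differed by -0.50 (SE 0.24, adjusted p 0.137), CRY2 by -0.15 (SE 0.85, adjusted p 0.911) and CSNK1A1 by 0.05 (SE 0.09, adjusted p 0.709). FL was labelled as a separate experiment. By the paper it differed from the wavebands in lamp, dose, exposure chamber and cuvette as well as in spectrum. These and any difference in the time of day cannot be told apart.

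**Figure D2:**
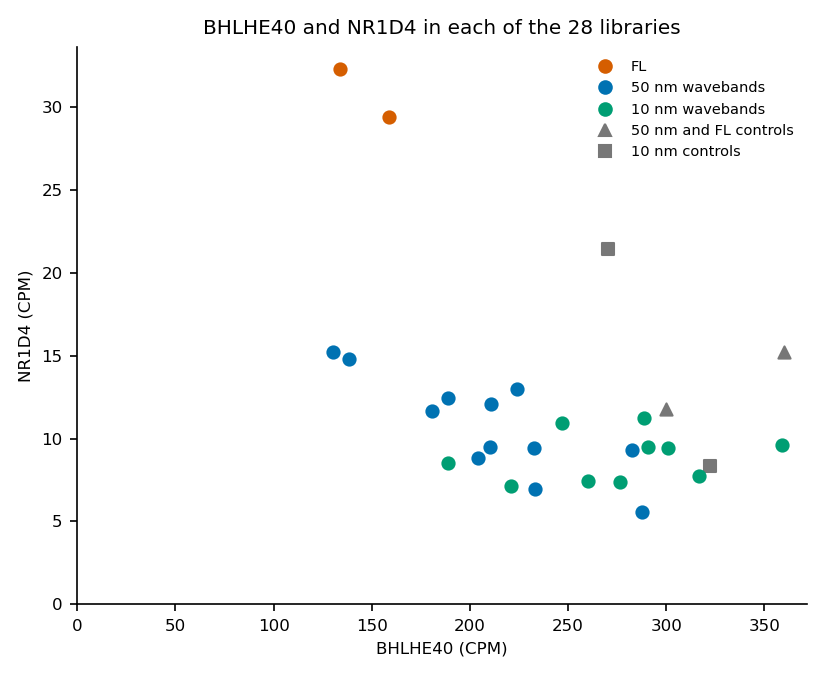
NR1D4 (vertical axis, CPM) against BHLHE40 (horizontal axis, CPM) in each of the 28 distinct libraries, with 1 point a fish; circles are exposed fish by experiment, triangles the controls of FL and the 50 nm wavebands, and squares the controls of the 10 nm wavebands. The 2 FL fish, at 134 and 159 CPM of BHLHE40, stand alone at the top left with 32.3 and 29.4 CPM of NR1D4.

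The fish with less BHLHE40 was the fish with more NR1D4 in 8 of the 14 groups, which is near an even split. This was so in the FL group and in 5 of the 6 groups of 50 nm, the exception being 350-400 nm. It was so in 1 of the 5 groups of 10 nm and in 1 of the 2 control groups. In log2 CPM minus the mean of the own controls, over the 24 exposed libraries, BHLHE40 and NR1D4 had a Pearson correlation of -0.68, given as a description, since fish of an experiment share their controls. It was -0.62 when each library was instead centred on the exposed libraries that share its controls. FL shares its controls with the 50 nm wavebands, so the step between FL and those wavebands was not removed. No correlation without the FL fish is given. Both values pool the experiments, and no value is given within the 50 nm or the 10 nm wavebands alone. The fish with less BHLHE40 had more NR1D4 in only 1 of the 5 groups of 10 nm, so neither value describes an inverse relation there.

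CSNK1A1, the kinase, was at its lowest after 300-350 nm. It was at 104 CPM in both fish of 300-350 nm, against 144 and 131 CPM in the controls. The other 10 fish of the 50 nm wavebands were between 127 and 159 CPM, which spans the controls. Its log2 fold change was -0.43 (SE 0.11, adjusted p 0.0577) after 300-350 nm and ran between -0.09 and 0.09 after the other wavebands. After 300-350 nm it was below 0 in all 13 alternative fits, between -0.49 and -0.27. That waveband also had the lowest dose, 7.3 kJ/m2, against 13.8 to 21.6 kJ/m2 for the other 50 nm wavebands. Dose and wavelength cannot be told apart here, nor in tests among these wavebands.

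Whether a member differed among the 6 wavebands was asked with the quasi-likelihood F test, where controls entered the fit but not the contrast. Of the 4 members 0 passed at an adjusted p under 0.05, against 4.35% of all genes. An unadjusted p under 0.05 was found for 3221 of 16722 genes and for 1 member. That member was CSNK1A1, with an unadjusted p of 0.00885 and an adjusted p of 0.112. DESeq2's likelihood ratio test on the exposed libraries passed CSNK1A1 at an adjusted p of 0.0190. How many of all genes that test passed was not counted. Over all alternatives of the F test the adjusted p of CSNK1A1 ran between 0.0190 and 0.342. In the F test itself the adjusted p was 0.687 for BHLHE40, 0.620 for NR1D4 and 0.689 for CRY2.

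CRY2 was near the limit of counting in this experiment, with 2 to 47 counts in the fish of the 50 nm wavebands. It was at 1.24 and 1.61 CPM after 300-350 nm, 1.52 and 0.680 CPM after 350-400 nm and 2.78 and 0.120 CPM after 400-450 nm. The longer wavebands gave 0.339 and 0.353 CPM after 450-500 nm, 0.547 and 1.27 CPM after 500-550 nm and 1.28 and 0.168 CPM after 550-600 nm, against 0.382 and 0.725 CPM in the controls. Only after 300-350 nm did both fish lie above both controls, and only after 450-500 nm both below. Fitted log2 fold changes ran between -0.70 (SE 1.23) and 1.33 (SE 1.07), and every SE was above 1, the log2 value of a 2-fold difference. After 400-450 nm the value was -2.18 without fish 1 and 2.26 without fish 2. The exact test called CRY2 after 300-350 nm (adjusted p 0.0375), where it called 5.96% of all pairs of gene and waveband.

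Over the 4 members and 6 wavebands, 0 of 24 pairs were called by the quasi-likelihood test of edgeR and 6 had an unadjusted p under 0.05. DESeq2 called 0, against 4.42% of pairs over all genes, and the exact test 1, against 5.96%. Among all genes an unadjusted p under 0.05 was found in 27.7% of pairs. Of all genes, those called by the quasi-likelihood test made up 0.975% for 300-350 nm, 3.27% for 350-400 nm and 2.06% for 400-450 nm. They made up 2.73% for 450-500 nm, 4.69% for 500-550 nm and 4.42% for 550-600 nm. The median log2 fold change was -0.18 over the 24 pairs, and the medians over all genes were between -0.02 and -7.2e-05. By member the median over the 6 wavebands was -0.70 for BHLHE40, -0.29 for NR1D4, 0.83 for CRY2 and -0.05 for CSNK1A1. The members thus shared no direction, and the pooled pairs share their controls.

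**Figure D3:**
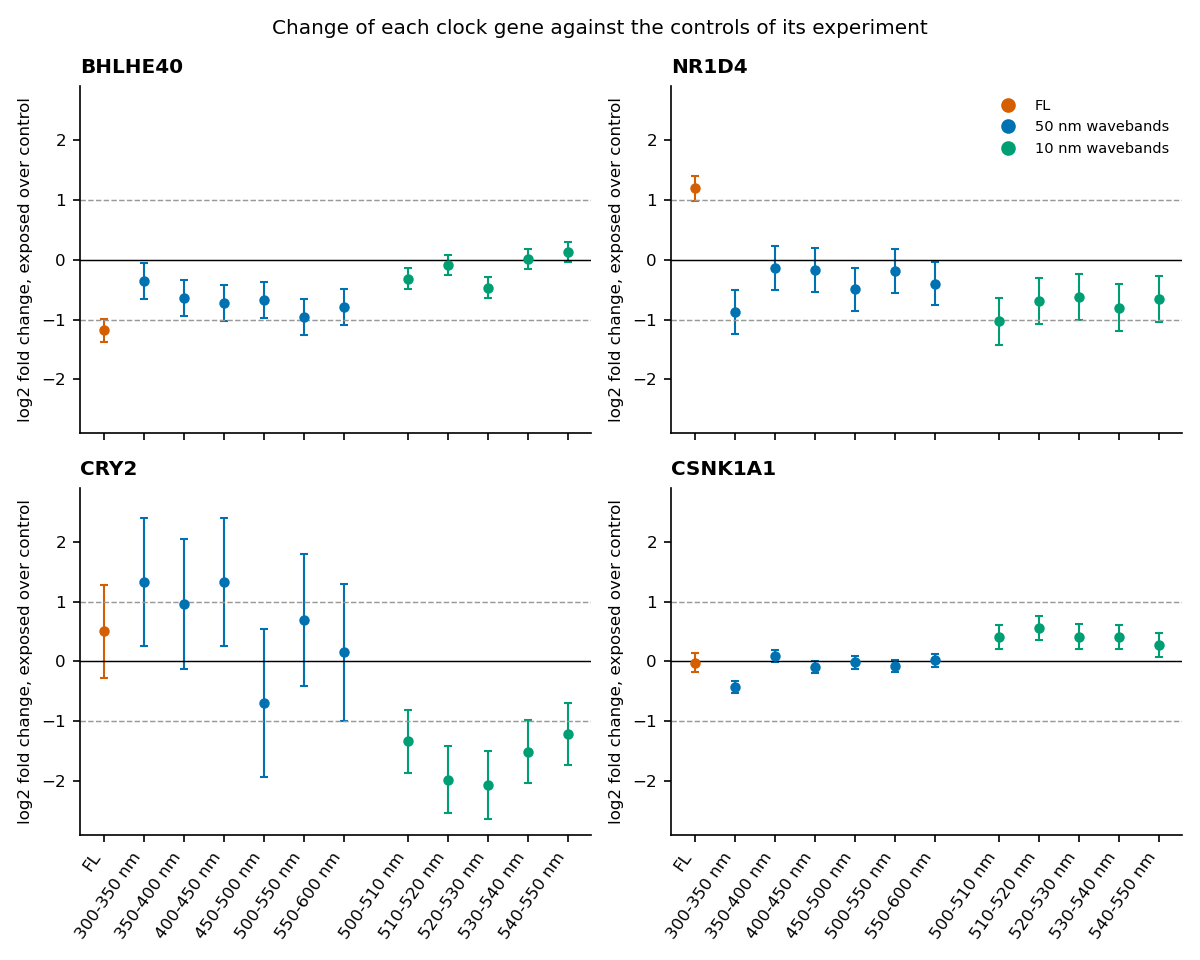
Log2 fold change of each clock gene after each exposure over the controls of its experiment (vertical axis), by exposure (horizontal axis); points are fitted changes from 2 fish against 2, bars are 1 SE either way, and dashed lines mark 2-fold. BHLHE40 lies below 0 after FL and all 6 wavebands of 50 nm, between -1.18 and -0.36, and NR1D4 lies above 0 after FL only, at 1.19.

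The 10 nm wavebands divide the region between 500 and 550 nm, and there CRY2 and CSNK1A1 were the members set apart from their controls. CRY2 was at 1.23 and 1.50 CPM after 500-510 nm, 0.725 and 1.03 CPM after 510-520 nm and 0.297 and 1.38 CPM after 520-530 nm. It was at 0.808 and 1.64 CPM after 530-540 nm and at 1.68 and 1.32 CPM after 540-550 nm, against 3.92 and 2.98 CPM in the controls, from 60 and 92 counts. All 10 exposed fish lay below both controls, as they did for 9.68% of all genes. FOXN1 was between 0.725 and 12.3 CPM in the same 10 fish, with 9 of them below both controls, at 10.1 and 13.2 CPM. MYL2B was between 27.6 and 117 CPM in them, with 4 below both controls and 2 above, and the part of these markers in the CRY2 and CSNK1A1 values was not tested. CRY2 had log2 fold changes of -1.34 (SE 0.52), -1.97 (SE 0.55), -2.07 (SE 0.56), -1.51 (SE 0.53) and -1.21 (SE 0.52) from the shortest to the longest waveband.

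None of these 5 changes of CRY2 was called, with adjusted p between 0.0977 and 0.374 in the quasi-likelihood test, although all 5 had an unadjusted p under 0.05. The mean of the 5 wavebands, a contrast added after the values were seen, was lower than the controls by -1.62 (SE 0.36, adjusted p 0.0787), and 0.0244% of all genes were called in it. The exact test called CRY2 after all 5 wavebands, with adjusted p between 0.00158 and 0.0426, where it called 4.6% of all pairs of gene and waveband. DESeq2 called CRY2 after none of them, where it called 2.87% of all pairs. Leaving out fish 2 of 510-520 nm gave a call after 510-520 nm (adjusted p 0.0451), in a fit that called 4.33% of all pairs. The mean was called without that fish (adjusted p 0.0222) and without fish 2 of 520-530 nm (adjusted p 0.0435), in fits that called 6.76% of all genes without the 510-520 nm fish and 2.91% without the 520-530 nm fish. Among the fish of the 10 nm wavebands CRY2 was lowest, at 0.297 CPM, in fish 1 of 520-530 nm, 1 of the 2 fish with FOXN1 under 1 CPM, and without it the log2 fold change after 520-530 nm was -1.34.

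The CRY2 controls of the experiments were themselves far apart. The controls of the 10 nm wavebands, at 3.92 and 2.98 CPM, were higher than those of the 50 nm wavebands, at 0.382 and 0.725 CPM, by a log2 difference of 2.61 (SE 0.94, adjusted p 0.0553 in 1 fit of all libraries), and 9.13% of all genes were called between these controls. FOXN1 was also higher in the controls of the 10 nm wavebands, at 10.1 and 13.2 CPM, than in those of the 50 nm wavebands, at 5.98 and 6.69 CPM. The fish of the 10 nm wavebands, between 0.297 and 1.68 CPM, lay within the range of the 50 nm wavebands, between 0.120 and 2.78 CPM. Against the mean of both control groups, the log2 fold change of CRY2 was between -0.74 and 0.12 after the 10 nm wavebands. The experiment and the light exposure cannot be told apart for a difference that rests on these controls.

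CSNK1A1 lay above its controls in every fish of the 10 nm wavebands. It was at 145 and 158 CPM after 500-510 nm, 197 and 140.4 CPM after 510-520 nm and 164 and 141 CPM after 520-530 nm. It was at 172 and 133 CPM after 530-540 nm and at 148 and 131 CPM after 540-550 nm, against 118 and 108 CPM in the controls. All 10 fish were above both controls, as they were for 14.3% of all genes. The controls of the 50 nm wavebands, at 144 and 131 CPM, lay within the range of these 10 fish. The controls of the 10 nm wavebands differed from them by a log2 value of -0.29 (SE 0.15, adjusted p 0.187 in the quasi-likelihood test, 1 fit of all libraries). Its log2 fold changes were between 0.28 (SE 0.20) and 0.56 (SE 0.20), with adjusted p between 0.124 and 0.537. The highest fish was fish 1 of 510-520 nm, which also had FOXN1 under 1 CPM. Without it the log2 fold change after 510-520 nm was 0.29, and without fish 2 it was 0.79 (adjusted p 0.0183, under 2-fold).

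BHLHE40 gave no common direction after the 10 nm wavebands. It was at 221 and 260.1 CPM after 500-510 nm, 276 and 288 CPM after 510-520 nm and 189 and 247 CPM after 520-530 nm. It was at 317 and 291 CPM after 530-540 nm and at 301 and 359 CPM after 540-550 nm, against 270.3 and 322 CPM in the controls. Both fish lay below both controls after 500-510 nm and 520-530 nm only, and the other 6 fish were within or above the range of the controls. Values of the log2 fold change were between -0.47 (SE 0.18, 520-530 nm) and 0.13 (SE 0.17, 540-550 nm), and the lowest adjusted p was 0.187.

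NR1D4 was at 7.14 and 7.41 CPM after 500-510 nm, 7.40 and 11.2 CPM after 510-520 nm and 8.54 and 10.9 CPM after 520-530 nm. It was at 7.74 and 9.48 CPM after 530-540 nm and at 9.45 and 9.62 CPM after 540-550 nm, against 21.5 and 8.34 CPM in the controls. The exposed fish were all below 1 control, and the other control lay among them. Log2 fold changes of NR1D4, between -1.03 (SE 0.39) and -0.62 (SE 0.39), rest on control 1. Without it they were -0.22 after 500-510 nm and between 0.02 and 0.19 after the other wavebands.

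Over the 4 members and 5 wavebands of 10 nm, 0 of 20 pairs were called by the quasi-likelihood test of edgeR and 8 had an unadjusted p under 0.05. DESeq2 called 0, against 2.87% of pairs over all genes, and the exact test 5, against 4.6%. Among all genes an unadjusted p under 0.05 was found in 18.7% of pairs. Of all genes the quasi-likelihood test called 0% in each of the first 4 wavebands of 10 nm and 0.00611% for 540-550 nm. The median log2 fold change was -0.54 over the 20 pairs, and the medians over all genes were between -0.03 and 0.01. By member the median over the 5 wavebands was -0.09 for BHLHE40, -0.68 for NR1D4, -1.51 for CRY2 and 0.41 for CSNK1A1. The pooled value is thus no common shift of the members, and its pairs share their controls. In the F test among the 5 wavebands, 0 of the 4 members and 0% of all genes passed, while 1285 of 16366 genes had an unadjusted p under 0.05. BHLHE40 alone had an unadjusted p under 0.05 there (0.0435, adjusted p 0.612). DESeq2's likelihood ratio test passed 0 members, with the share over all genes not counted.

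The change after 500-550 nm was then set against the mean change after the 5 wavebands of 10 nm that divide it, each against its own controls, in 1 fit of all libraries. BHLHE40 differed by a log2 value of -0.80 (SE 0.34, adjusted p 0.121), CSNK1A1 by -0.48 (SE 0.19, adjusted p 0.102), CRY2 by 2.34 (SE 1.20, adjusted p 0.195) and NR1D4 by 0.58 (SE 0.48, adjusted p 0.431). Of the 4 members 0 passed, against 14.4% of all genes, and 2 had an unadjusted p under 0.05, as did 5234 of 16872 genes. The control fish also differ between these exposures.

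**Figure D4:**
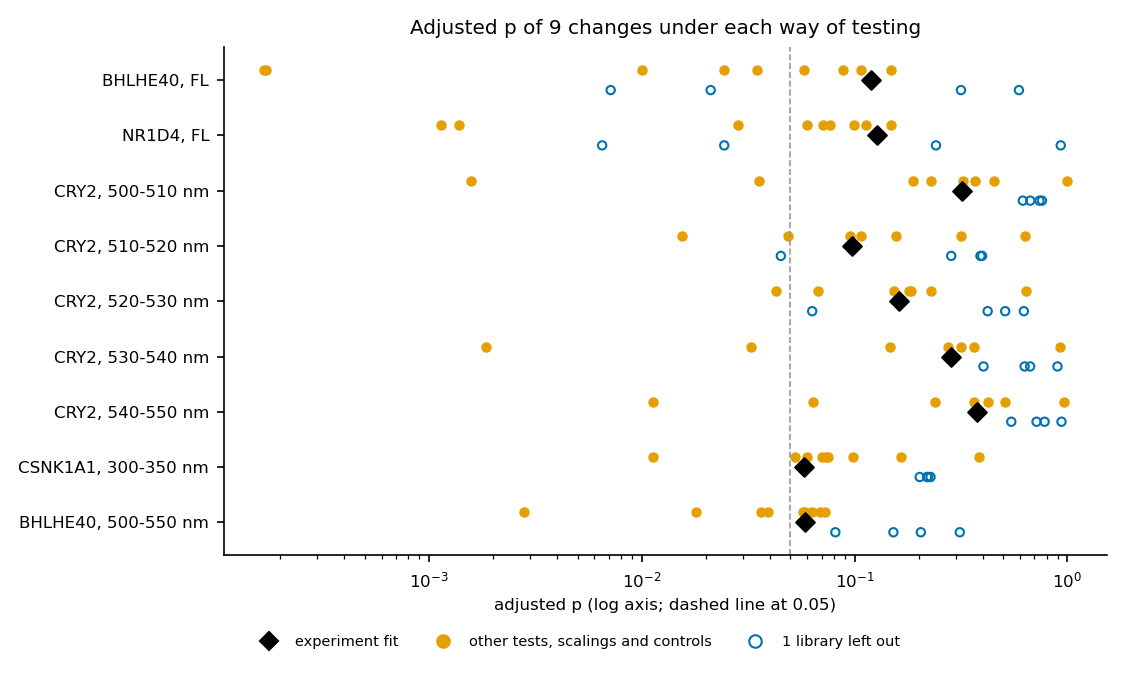
Adjusted p (horizontal log axis) of 9 changes of clock genes; black diamonds are the edgeR quasi-likelihood fit of the experiment, filled circles other tests, scalings, fits and controls, and open circles fits with 1 library left out. BHLHE40 and NR1D4 after FL lie on either side of 0.05 (dashed line), between 0.000168 and 0.592 for BHLHE40.

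In the order of group means over the 14 groups, neighbouring groups mostly overlapped in their fish. Groups that stand apart were not counted over all genes, so a gap is given as a description and not as a trait of the members. For BHLHE40 all 13 pairs of neighbours overlapped, with the controls of the 50 nm wavebands at the top (330.1 ± 42.5 CPM, SD, n = 2) and FL at the bottom (146 ± 17.8 CPM, SD, n = 2). For NR1D4, FL stood first (30.9 ± 2.06 CPM, SD, n = 2) and apart from the next group, the controls of the 10 nm wavebands (14.9 ± 9.29 CPM, SD, n = 2), and the other 12 pairs of neighbours overlapped. For CRY2, the controls of the 10 nm wavebands were apart at the top (3.45 ± 0.658 CPM, SD, n = 2) and 450-500 nm apart at the bottom (0.346 ± 0.00948 CPM, SD, n = 2). For CSNK1A1, 300-350 nm was apart at the bottom (104 ± 0.0920 CPM, SD, n = 2), with the controls of the 10 nm wavebands next (113 ± 7.60 CPM, SD, n = 2) and apart from the group above.

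The spread between the fish of a group was small for CSNK1A1, at most 1.40-fold, and wide for CRY2, with at least a 2-fold gap in 7 of the 14 groups. The median gap was 1.19-fold for BHLHE40 and 1.31-fold for NR1D4.

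Beyond the members, few genes of the clock could be followed by name. Of 39 symbols listed for the loop, its kinases and its light input, 5 had a row with a name. These were the members and RORA (ENSXMAT00000003254), a receptor that activates ARNTL in mammals. The other symbols may have rows known here only by transcript number. The paper lists CLOCK, ARNTL, CRY1 and PER1, for example, among genes changed after 520-530 nm. It also lists BHLHE40 there, but by human gene symbols, so its BHLHE40 may be another row than the member. The member was not called after 520-530 nm here. Nor was any of the 16366 genes tested, with a lowest adjusted p of 0.162 in the quasi-likelihood test. In that test the missing call is therefore not particular to BHLHE40. The log2 fold change of BHLHE40 was -0.47 (SE 0.18, adjusted p 0.187 in the quasi-likelihood test), and between -0.66 and -0.29 in the alternatives. RORA was called after 0 of the 12 exposures by the quasi-likelihood test of edgeR. Its log2 fold change was -0.64 after FL, between -0.45 and 0.40 after the 50 nm wavebands and between -1.10 and -0.37 after the 10 nm wavebands, with adjusted p of 0.101 and above and an unadjusted p under 0.05 after 2 exposures. DESeq2 and the exact test each called RORA as lower after 520-530 nm (adjusted p 0.0221 from DESeq2 and 0.0482 from the exact test). Over all pairs of gene and waveband of 10 nm, DESeq2 called 2.87% and the exact test 4.6%. Leaving out FL fish 1 called RORA as lower after FL, in a fit of a lone FL fish. The share of all genes called in that fit is given above with BHLHE40.

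The panel as read here also gives the symbol CRY2A to ENSXMAT00000009327, but that number is out of order in the list and may be misread, so the row is given by its identifier. It was at 71.6 and 39.9 CPM in the FL fish and between 31.7 and 64.9 CPM in the 12 fish of the 50 nm wavebands, against 15.5 and 17.6 CPM in their controls. It was called as higher after all 6 wavebands of 50 nm by the quasi-likelihood test. Its log2 fold changes were between 1.02 and 1.72, with adjusted p between 0.00465 and 0.00824. That test called between 0.975% and 4.69% of all genes in these wavebands, and the share called in all 6 was not counted. All 12 fish lay above both controls, as they did for 9.51% of all genes, and the 6 comparisons share these 2 controls. After FL the log2 fold change was 1.75 (SE 0.30, adjusted p 0.121). After the 10 nm wavebands it was between 0.05 and 0.40, against controls at 37.9 and 29.5 CPM, which were higher than the controls of the 50 nm wavebands by 1.02 (SE 0.30, adjusted p 0.0203).

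The named rows most like each member were found over the 24 exposed libraries, by the Pearson correlation of log2 CPM minus the mean of the own controls. Both genes of such a pair share controls, and a gap between the control pairs, such as the 2.61 of CRY2, enters each value as a step between experiments. So each correlation is followed by its value when libraries were centred on the exposed libraries that share their controls, which was added once the values were known. FL shares its controls with the 50 nm wavebands, so centring left in the step between FL and those wavebands. That step was 1.55 on the log2 scale for NR1D4, and no correlation without the FL fish is given. For BHLHE40 they were RAVER1 (0.71, centred 0.27), KPNA2 (0.70, centred 0.24) and INTS9 (0.67, centred 0.15), much lower values once centred. For NR1D4 they were PCP4 (0.75, centred 0.71), STAT4.CDS (0.57, centred 0.46) and LCP2A (0.52, centred 0.53). For CRY2 they were RORA (0.78, centred 0.66), SI DKEY-1C7.1 (0.78, centred 0.58) and PRKCB (0.75, centred 0.59). For CSNK1A1 they were YWHAQ (0.89, centred 0.70), HSPA4 (0.87, centred 0.61) and DMC2 (0.77, centred 0.30). The choice was among 82 named rows, and by rank among all 16871 rows tested these lay between 27 (PCP4) and 1516 (DMC2), so rows without a name were more alike.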

How the data were processed

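RNA was taken from the skin of single fish, and libraries of messenger RNA were sequenced as paired-end reads. The authors mapped the reads with GSNAP to Ensembl transcripts and deposited raw counts of reads per transcript, which are whole numbers with no normalization. The genome build, the tool versions and the treatment of reads that map to several transcripts are not given in the sources used here.

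The count table had 32 columns, of which 28 were distinct. The groups were taken from the sample labels. After filterByExpr and TMM scaling, counts were fitted by the quasi-likelihood method of edgeR 4.0.16 (R 4.3.3), and p-values took the Benjamini-Hochberg adjustment over all genes tested, in 1 fit each for FL, the 50 nm wavebands and the 10 nm wavebands. The SE of a log2 fold change is its size divided by the square root of F. Log2 CPM, from which the correlations were taken, carry a prior count of 2, which narrows differences at low counts such as those of CRY2. The fitted fold changes were not given this prior count. With 2 fish a group, the spread behind a p-value was pooled over the groups of a fit and drawn toward a trend over genes. It covers only the fish of these libraries. The script was tested on simulated data.

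The alternatives were DESeq2 1.42.0, the exact test, RLE scaling, no filter, other sets of libraries and of controls, the replicate number as a block, and each library left out in turn. The members and lists were chosen with earlier results of these data known. The genes named are the members, every other gene of the clock list with a named row, and for each member the 3 named rows of highest correlation. Contrasts of means over wavebands were added after the values were seen. A planned search for motifs in promoters was not run, since no promoter sequence was used here. NanoString data and sham exposed fish were not used here.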

Additional observations from a re-analysis of the deposited data

Results flagged for a closer look

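NR1D4 was set aside because its level differed between exposures by a direct test. After FL it was higher than the mean of the 6 wavebands of 50 nm by 1.55 on the log2 scale (SE 0.23, adjusted p 0.00152 from edgeR). The same test called 5.69% of all genes. Both FL fish lay above all 12 fish of the wavebands, and the share of all genes with such a separation was not counted. The contrast was chosen after the values were seen. The labelled experiment, the lamp, the dose, the exposure chamber, the cuvette and the spectrum differ together between these exposures. The time of day was not stated for either.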

How the results depend on the processing

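After FL, where 0 members were called, 2 were called by DESeq2 (3.87% of all genes called), 2 by the exact test (4.61%), 2 against all distinct controls (3.33%) and 1 in a fit of all distinct libraries (2.64%), where the chosen fit called 0%. Leaving out 1 library gave between 0 and 2, with 2 called without either FL fish (15.2% of all genes without fish 1 and 2.53% without fish 2) and 0 without either control. For the 50 nm wavebands the exact test called 1 pair (5.96% over all genes) and every other alternative 0. For the 10 nm wavebands, where 0 pairs were called, the exact test called 5 (4.6% over all genes), fits of a waveband and its controls alone 2 (2.82%), and leaving out 1 library between 0 and 1. DESeq2 found 1 member, CSNK1A1, that differed among the 6 wavebands of 50 nm, with the share over all genes not counted. The mean over the 10 nm wavebands gave 0 calls, and between 0 and 1 with 1 library left out.

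Fish with the same replicate number did not deviate together with the controls (correlation -0.24 for FL, between -0.21 and 0.05 for the 50 nm wavebands and between -0.02 and 0.09 for the 10 nm wavebands), so the number was not taken as a pairing. Between wavebands the correlation averaged 0.12 for 50 nm, between -0.26 and 0.32, and 0.24 for 10 nm, between 0.03 and 0.59, so exposed fish of 1 number in the 10 nm wavebands did deviate together. With the replicate number as a block, 0 members were called after FL and 0 pairs in the 50 nm wavebands. In the 10 nm wavebands 1 pair was called (CRY2 after 510-520 nm, 1% over all genes). The mean over the 10 nm wavebands gave 1 member, CRY2, with the share of all genes in that mean alone not counted. Pooled over the contrasts of means over wavebands, fits with the block called 4.59% of all pairs of gene and contrast. Without the block, 0.0244% of all genes were called for the mean over the 10 nm wavebands. With crossed numbers, an alternative chosen after seeing the data, 1 member was called after FL (2.17% of all genes).

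Of 48 pairs of member and exposure, 28 kept their sign in every alternative, and 14 of the other 20 were smaller than their SE. CRY2 after 400-450 nm ran between -2.18 and 2.26 on the log2 scale with 1 library left out, and after 540-550 nm it was 0.12 against all distinct controls. NR1D4 with 1 library left out ran between -1.22 and 0.13 after 510-520 nm, -1.15 and 0.19 after 520-530 nm, -1.33 and 0.017 after 530-540 nm, and -1.19 and 0.16 after 540-550 nm, each positive without control 1. The cause was not tested. Counts of 2 to 92 limit the precision of CRY2.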
